A study of Rattus norvegicus with 30 samples.

Results

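The list of names described here was chosen with earlier results of these data known. It holds 38 genes that mark microglia and the macrophages of the brain. Of these, 36 matched a row among the 17134 genes of the expression table, and Gpr34 and Cybb are not analysed here. Their transcripts were measured by RNA-seq in brain tissue, labelled frontal cortex, from 30 male rats fed a normal diet, with 10 rats in each of 3 groups. WT rats express rat amylin, a hormone that pancreatic β-cells release with insulin and that does not form amyloid in rodents. HIP rats are their littermates and in addition express human amylin, which does form amyloid, in pancreatic β-cells. The promoter that drives this transgene was not given in the sources used here. HIP rats develop type-2 diabetes, so an effect of the human peptide in the brain and an effect of diabetes cannot be told apart in them. AKO rats lack the amylin gene. WT and HIP rats were 15 to 16 months of age, and the age of the 10 AKO rats sequenced was not given in the sources used here. The identifiers of all WT and HIP rats begin with 10RT or 12RT, whereas those of the AKO rats carry other prefixes. What the prefixes stand for was not given in the sources used here. Genotype cannot be told apart from whatever they mark in any comparison with AKO rats. The text of the study also names the tissue as hippocampus, and the targeted amylin transcript was not analysed here.

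Microglia are the resident macrophages of the brain parenchyma. They depend on signals through the receptor Csf1r and on the transcription factor PU.1, which is encoded by Spi1, and they survey healthy tissue in a state marked by the receptor Cx3cr1 and the membrane protein Tmem119. When they are activated they raise genes of the lysosome, of phagocytosis and of the oxidative burst, such as Cd68 and Trem2, and can lose part of the homeostatic set. Most of these genes are shared with macrophages at the border of the brain and with blood monocytes, so bulk tissue does not separate these cells. In a lower level, fewer cells of a type and less RNA per cell cannot be told apart.

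PU.1 binds DNA at sites with the core GAGGAA, and the start regions of the members were searched for it because its binding is a feature of macrophage genes. RefSeq start regions (build GRCr8, 250 bases before the annotated start) were found for 28 of the 36 genes, whereas the expression table was made on build rn7, and 16 of these 28 (57.1%) held GAGGAA or its reverse complement TTCCTC, compared with 7812 of 33469 start regions of all genes (23.3%). The ETS-IRF composite element, searched on both strands and allowed to overlap the first motif, was found for Cd68 alone, against 2.5% of all start regions. A match describes letters in a window and not a bound site. The 4 regions shown are those of the members with the smallest p in AKO vs. WT rats, chosen after these values were seen, and they lie at chr1:192089342-192089591 (plus strand) for Itgam, chr10:54882442-54882691 (minus strand) for Cd68, chr2:185775146-185775395 (plus strand) for Ctss and chr1:218876644-218876893 (plus strand) for Mpeg1. Capitals mark the matches, and the sequence of each is written 5′ to 3′ on the strand of the gene.
Itgam: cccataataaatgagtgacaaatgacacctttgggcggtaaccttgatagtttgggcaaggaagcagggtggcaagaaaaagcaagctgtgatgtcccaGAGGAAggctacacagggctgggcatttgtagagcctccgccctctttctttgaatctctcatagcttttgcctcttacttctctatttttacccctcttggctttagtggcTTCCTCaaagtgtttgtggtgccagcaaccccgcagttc
Cd68: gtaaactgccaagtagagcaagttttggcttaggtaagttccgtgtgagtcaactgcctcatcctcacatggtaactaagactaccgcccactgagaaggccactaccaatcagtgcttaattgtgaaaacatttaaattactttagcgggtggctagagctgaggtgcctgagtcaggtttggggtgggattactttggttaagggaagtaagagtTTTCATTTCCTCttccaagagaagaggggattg
Ctss: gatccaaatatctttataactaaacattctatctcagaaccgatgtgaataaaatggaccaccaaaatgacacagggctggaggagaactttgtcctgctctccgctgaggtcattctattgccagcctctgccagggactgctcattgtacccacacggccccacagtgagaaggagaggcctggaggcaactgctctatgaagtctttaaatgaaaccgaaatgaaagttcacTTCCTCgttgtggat
Mpeg1: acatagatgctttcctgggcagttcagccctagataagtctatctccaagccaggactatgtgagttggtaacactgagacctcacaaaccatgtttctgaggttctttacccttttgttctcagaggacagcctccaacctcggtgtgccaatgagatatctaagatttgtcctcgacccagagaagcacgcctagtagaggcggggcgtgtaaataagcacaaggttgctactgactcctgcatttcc
The region of Itgam holds 2 matches, that of Cd68 a match of each motif that together form 1 run, and that of Ctss 1 match close to the start. The region of Mpeg1 holds none.

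All values are normalized counts, in which a library's read counts were divided by its size factor, and they are not corrected for transcript length, so levels are compared between rats and not between genes. The depth estimated from the steps of the low values was 12.9 to 23.6 M reads per rat, with medians of 19.1 M in WT, 15.7 M in HIP and 16.1 M in AKO rats. All 36 genes were detected in every rat, and the lowest value was 4.41 (Cd14 in HIP rat 10RT54). Several libraries stood apart before any comparison. WT rat 10RT43 had a summed level of 78853 over 8 cerebellar markers, against 1613 in the next WT rat, and HIP rat 12RT23 had 9754. The labelled cortex was checked by 7 genes of the neocortical layers, whose summed levels were 15400.4 to 44611 in WT, 35968 to 49524 in HIP and 26918 to 53296 in AKO rats, 10RT43 being the lowest, with Fezf2 listed at 0. HIP rat 10RT46 held pineal gland and choroid plexus markers, AKO rat 7AKO19 choroid plexus markers, and HIP rat 10RT48 and AKO rat 4KAH27 differed from their groups in the microglial genes themselves. The results that rest on these libraries are given with and without them. AKO rat 6KAH98 was not counted among these libraries, although it was the lowest AKO rat for 27.2% of all genes and the highest for 23.8%.

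**Figure D1:**
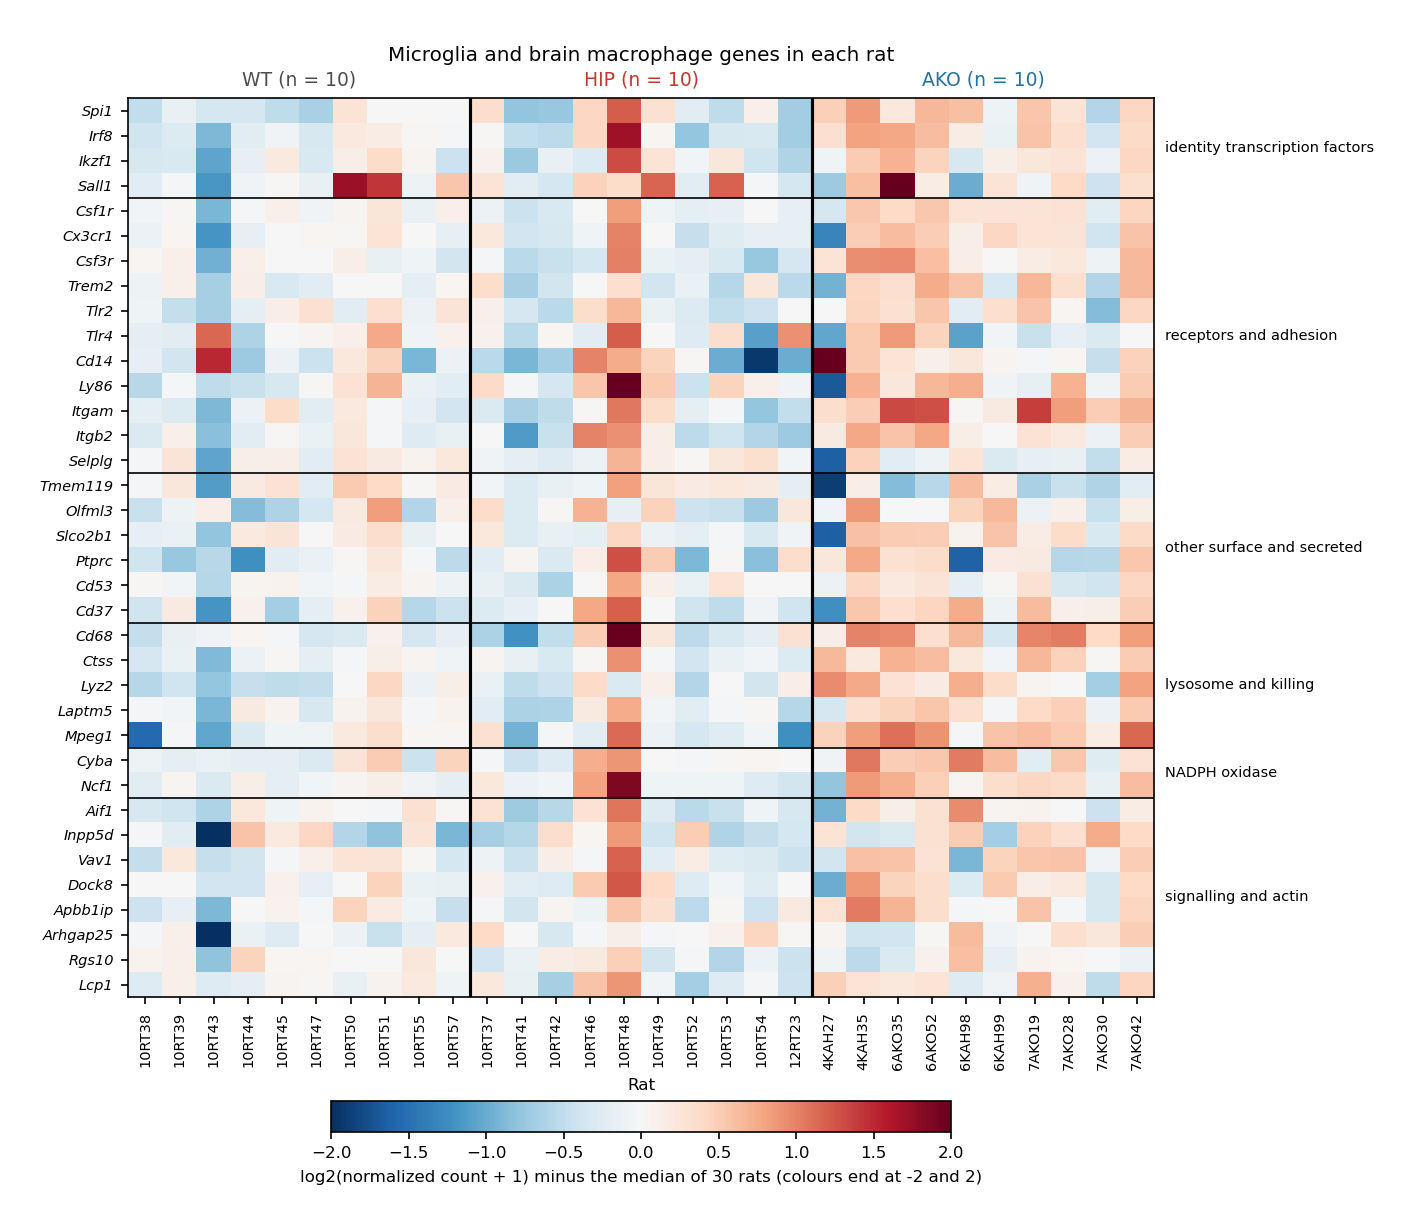
Each column is a rat and each row a gene, grouped by role; the colour is log2(normalized count + 1) minus the median of the 30 rats, with colours ending at -2 and 2. The blue column of WT rat 10RT43 and the red column of HIP rat 10RT48 stand out, and red cells are spread over most AKO rats.

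In HIP vs. WT rats, none of the 36 genes passed an unadjusted p of 0.05, compared with 2.57% of all 17085 genes tested (1.11% higher and 1.46% lower in HIP rats), and none of all genes tested passed after adjustment (limma with Benjamini-Hochberg adjustment over all genes). The median log2 fold change of the 36 genes was 0.07, beside 0.0018 over all genes tested. Of the 36 genes, 25 were above 0 and 11 below, beside 50.6% and 49.4% of all genes. The smallest p belonged to Ly86, which encodes MD-1, the partner of a relative of the Toll-like receptors. Ly86 ran from 22 to 53 in WT rats (median 28.8), 24.2 to 147.7 in HIP rats (median 39.2) and 9.60 to 54.7 in AKO rats (median 42.8). HIP vs. WT rats differed in it by 0.45 ± 0.25 on the log2 scale (p = 0.0864, adjusted p = 0.999), and 8 of 10 HIP rats lay above the WT median. The values of the groups overlapped for every one of the 36 genes, as they did for all 17085 genes tested.

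CD68 and CD11b, antigens used to stain microglia, are encoded by Cd68, a glycoprotein of lysosomes and endosomes, and Itgam, the α chain of complement receptor 3. Cd68 ran from 29.3 to 43.9 in WT rats (median 37.1), 17.3 to 259.7 in HIP rats (median 34.9) and 32.2 to 85.4 in AKO rats (median 69.9). HIP rat 10RT48, at 259.7, was the highest of all 30 rats and the next HIP rat was at 59.1, whereas 9 of 10 AKO rats were above the WT median. The difference was 0.21 ± 0.32 in HIP vs. WT rats (p = 0.523) and 0.77 ± 0.16 in AKO vs. WT rats (p = 0.000115, adjusted p = 0.0698), both as log2 fold change ± SE. Itgam ran from 95.7 to 231.9 in WT rats (median 158.8), 104.6 to 373.9 in HIP rats (median 152.3) and 182.2 to 470.7 in AKO rats (median 271.2). All 10 AKO rats were above the WT median, although the ranges overlapped. Itgam was at 182.2 to 252.3 in the 4 AKO rats with KAH in their identifier and at 253.4 to 470.7 in the other 6. Its log2 fold change was 0.02 ± 0.19 in HIP vs. WT rats (p = 0.905) and 0.87 ± 0.18 in AKO vs. WT rats (p = 8.45e-05, adjusted p = 0.0623), and the latter was the smallest adjusted p of the 36 genes in that comparison.

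**Figure D2:**
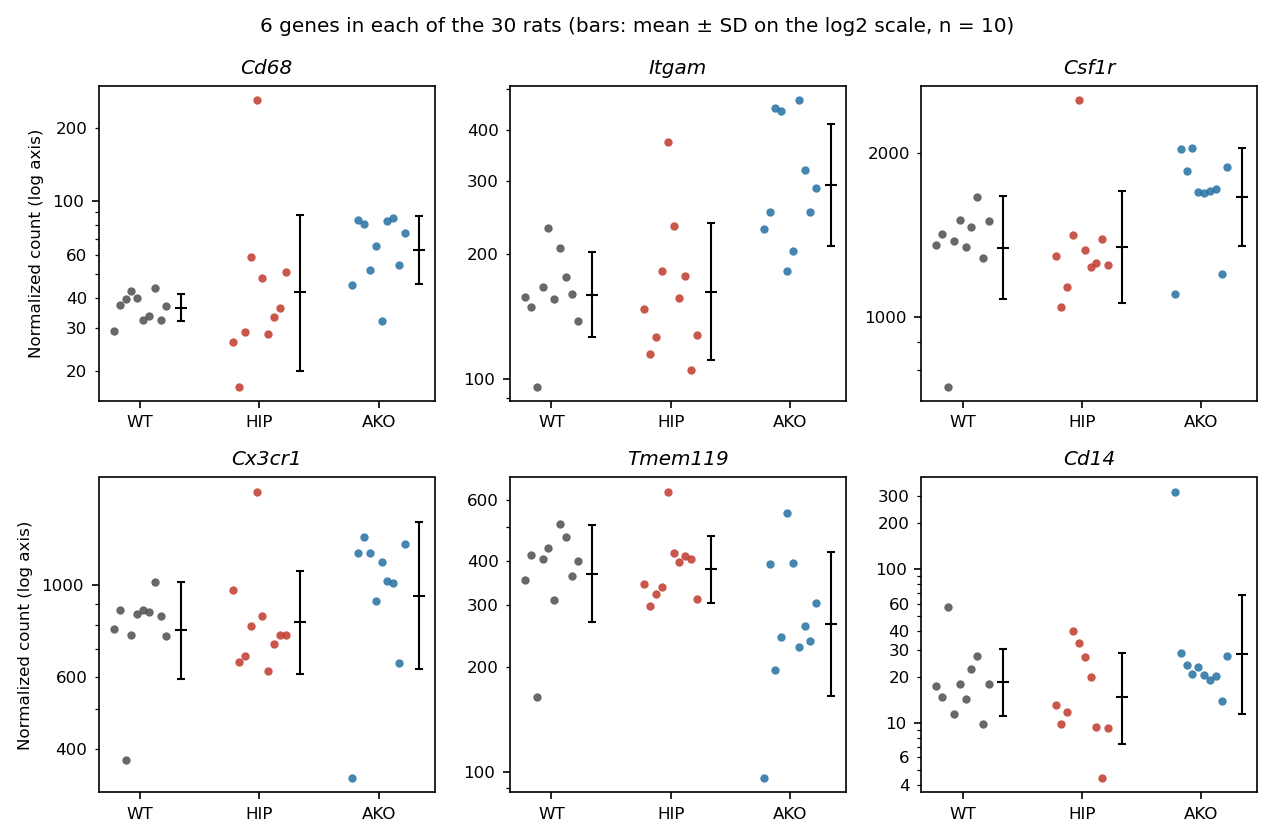
Points are the normalized counts of single rats on a log axis for 6 genes, with WT in grey, HIP in red and AKO in blue, and bars are the mean ± SD on the log2 scale (n = 10 rats each). Single rats set the extremes of Cd68 in HIP rats (259.7) and of Cd14 in AKO rats (319.5), whereas most AKO rats lie above most WT rats for Itgam.

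The count in HIP vs. WT rats depended on which libraries entered. With HIP rats 10RT46 and 10RT48 and WT rat 10RT43 left out, 8 genes passed an unadjusted p of 0.05 and all 8 were lower in HIP rats, namely Aif1, Cx3cr1, Csf1r, Irf8, Laptm5, Csf3r, Itgb2 and Rgs10, the background being 4.94% of all genes in either direction. The median log2 fold change was then -0.15, with 32 of 36 genes below 0. The share of all genes below 0 without these rats is not given here. With the estimated reads of each rat as a covariate, 8 genes passed as well but all were higher in HIP rats, the median was 0.32, and 24% of all genes passed. Tmem119, Csf1r, Ctss, Cd37, Inpp5d, Dock8, Arhgap25 and Selplg were those 8, and Arhgap25 alone passed after adjustment, when 4.33% of all genes did. Estimated reads ran from 13.7 to 16.7 M in HIP rats and from 16.3 to 21.1 M in WT rats other than 10RT43. That library, at 12.9 M, was the lowest WT rat in reads and in Arhgap25 (43.1 against 311.3 in the next). Reads and group were thus hardly separate apart from 10RT43, and its weight in this fit was not tested. Leaving out 10RT48 alone gave no call and a median of -0.05. Since 10RT48 and 10RT43 are themselves extreme in these genes, leaving them out selects on the values compared. The direction in HIP vs. WT rats thus changed with these choices, of which the covariate for reads was added after the data were seen.

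In AKO vs. WT rats, 15 of the 36 genes passed an unadjusted p of 0.05 and all 15 were higher in AKO rats, compared with 9.34% of all 17058 genes tested, 5.23% in that direction and 4.12% in the other. None of the 36 passed after adjustment, compared with 0.0997% of all genes (0.0469% lower in AKO rats), and the smallest adjusted p was 0.0623. The median log2 fold change of the 36 genes was 0.33, with 31 above 0 and 5 below, beside 50.3% and 49.7% of all genes, and none had groups that did not overlap, beside 0.0117% of all genes that were higher without overlap. All 5 genes of the lysosome and of killing passed, as did 3 of 4 transcription factors, 4 of 11 receptors and adhesion molecules, both NADPH oxidase subunits analysed and 1 of 8 signalling and actin genes. Of the 6 other surface and secreted proteins, none did.

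Among the transcription factors, Spi1 encodes PU.1, Irf8 its partner in myeloid cells and Ikzf1 the zinc finger protein Ikaros. Spi1 ran from 41 to 78 in WT rats (median 54.4), 37 to 150.8 in HIP rats (median 62.1) and 42.5 to 117.6 in AKO rats (median 88.3). The 9 AKO rats other than 7AKO30 were at 60.4 or above, and Spi1 was higher in AKO vs. WT rats by 0.56 ± 0.16 on the log2 scale (p = 0.00249). Irf8 ran from 46.6 to 99.7 in WT rats (median 79.1), 50.6 to 284.9 in HIP rats (median 70.2) and 67 to 154.1 in AKO rats (median 112.3). The highest value again came from HIP rat 10RT48, and the log2 fold change was 0.53 ± 0.16 in AKO vs. WT rats (p = 0.00295). Ikzf1 ran from 45.4 to 124.2 in WT rats (median 81.5), 56.7 to 238.8 in HIP rats (median 89.4) and 76.5 to 155.8 in AKO rats (median 113.2), with 0.40 ± 0.16 in AKO vs. WT rats (p = 0.0216). The fourth factor, Sall1, sets microglial identity and is also made by other cells of the brain. Sall1 ran from 251.1 to 1850.5 in WT rats (median 545.04), 441.2 to 1281 in HIP rats (median 621.3) and 284.3 to 2414 in AKO rats (median 657.2), and AKO vs. WT rats differed by -0.04 ± 0.35 (p = 0.916). Its high values stood in rats with high olfactory bulb markers, namely WT rats 10RT50 and 10RT51, HIP rats 10RT49 and 10RT53 and AKO rat 6AKO35, and over the 24 rats without the 6 libraries named above its Pearson's r with the mean log2 level of 5 olfactory bulb genes was 0.91. The part of that tissue in the level of Sall1 was not tested.

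Of the receptors, Csf1r binds the survival factors CSF1 and IL-34. Csf1r ran from 746.2 to 1657 in WT rats (median 1399), 1044 to 2496 in HIP rats (median 1274) and 1103 to 2044 in AKO rats (median 1708). WT rat 10RT43 was the lowest of all rats and HIP rat 10RT48 the highest, and the gene was higher in AKO vs. WT rats by 0.31 ± 0.13 (p = 0.0284). Cx3cr1, the receptor for the neuronal chemokine fractalkine, ran from 375.5 to 1019 in WT rats (median 846.3), 617.2 to 1685 in HIP rats (median 757.4) and 340.1 to 1307 in AKO rats (median 1078). Of the AKO rats, 8 were above the WT median, but AKO rat 4KAH27 was the lowest of all 30, and the difference was 0.28 ± 0.21 (p = 0.199). Csf3r, the receptor for granulocyte colony-stimulating factor, ran from 27.5 to 59.2 in WT rats (median 54.5), 31.9 to 109.96 in HIP rats (median 43.4) and 50.7 to 105.5 in AKO rats (median 64.4). It was higher in AKO vs. WT rats (0.50 ± 0.16, p = 0.0058) and lower in HIP vs. AKO rats (-0.59 ± 0.19, p = 0.00485). Itgb2, the β chain that pairs with Itgam, ran from 98.1 to 206.4 in WT rats (median 159.7), 80.2 to 351.02 in HIP rats (median 131.4) and 161.9 to 303.7 in AKO rats (median 207.9). All 10 AKO rats were above the WT median, and the log2 fold change was 0.48 ± 0.13 (p = 0.00175). HIP rats spread over a wider range of Itgb2 than WT rats, since 10RT46 and 10RT48 had 351.02 and 333.02.

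The other receptors did not pass in AKO vs. WT rats. Trem2, a lipid receptor that drives the activated state, ran from 116.00 to 201.7 in WT rats (median 178.03), 115.9 to 236.5 in HIP rats (median 155.96) and 96 to 310.3 in AKO rats (median 240.1), and its log2 fold change was 0.31 ± 0.19 (p = 0.12). Cd14, the co-receptor for lipopolysaccharide, ran from 9.90 to 57.4 in WT rats (median 17.7), 4.41 to 39.8 in HIP rats (median 12.5) and 13.9 to 319.5 in AKO rats (median 22.1). A single AKO rat, 4KAH27, set that maximum, and the next AKO rat was at 28.5. The WT maximum came from 10RT43, and the next WT rat was at 27.3. Of the 10 AKO rats, 9 lay above the WT median. The log2 fold changes of Cd14, Tlr2, Tlr4, Ly86 and Selplg, of which the Toll-like receptors sense bacterial products and Selplg is a selectin ligand, lay between -0.23 (Tlr4) and 0.58 (Cd14). Tlr2 ran from 43.1 to 87.1 in WT rats (median 64.4), 47.4 to 109.96 in HIP rats (median 59.9) and 37.6 to 102.8 in AKO rats (median 86.7). Tlr4 ran from 18.7 to 65.8 in WT rats (median 29.96), 13.2 to 69.1 in HIP rats (median 29.6) and 13.4 to 53.6 in AKO rats (median 27.1), and its WT maximum came from 10RT43. The Ly86 values given above had 4KAH27 as the lowest of all rats. Selplg ran from 472.4 to 1198 in WT rats (median 1068), 821.2 to 1587 in HIP rats (median 971.4) and 316.8 to 1351 in AKO rats (median 883.9), with a log2 fold change of -0.21 ± 0.21 (p = 0.314).

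All 5 lysosomal and killing genes passed in AKO vs. WT rats. Ctss, a protease that trims the MHC class II invariant chain, ran from 1767 to 3532 in WT rats (median 3044), 2495 to 6096 in HIP rats (median 3044) and 3113 to 5267 in AKO rats (median 4531). All 10 AKO rats were above the WT median, and Ctss was higher in AKO vs. WT rats by 0.55 ± 0.12 (p = 0.0002, adjusted p = 0.0853). Mpeg1, the pore-forming perforin-2 of macrophages, ran from 340.3 to 1273 in WT rats (median 962.5), 426.2 to 2189 in HIP rats (median 886.9) and 981.7 to 2212 in AKO rats (median 1507). This gene was higher in AKO vs. WT rats by 0.87 ± 0.21 (p = 0.000391), again with all 10 AKO rats above the WT median. Lyz2, which encodes lysozyme, ran from 501.8 to 1135 in WT rats (median 634.4), 570.6 to 1111 in HIP rats (median 738.2) and 531.2 to 1649 in AKO rats (median 1074), and was higher by 0.62 ± 0.18 (p = 0.00285). Its highest AKO value came from 4KAH27 and its lowest from 7AKO30. Laptm5, a lysosomal membrane protein of blood-derived cells, ran from 318.1 to 706.01 in WT rats (median 613.3), 387.2 to 1005 in HIP rats (median 549.9) and 478.6 to 883.7 in AKO rats (median 779.5), and was higher by 0.33 ± 0.14 (p = 0.0254). The NADPH oxidase makes the superoxide of the oxidative burst, and its subunit Cybb is not analysed here. Cyba, a membrane subunit, ran from 63.9 to 124.2 in WT rats (median 77.5), 64.1 to 161.3 in HIP rats (median 86.7) and 72.8 to 180.4 in AKO rats (median 124.6), with a log2 fold change of 0.44 ± 0.18 (p = 0.022). Ncf1, a cytosolic subunit, ran from 76.5 to 101.9 in WT rats (median 89.4), 72 to 345.6 in HIP rats (median 88.3) and 53.5 to 170.1 in AKO rats (median 123.7), with 0.36 ± 0.16 (p = 0.0357).

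Of the signalling and actin genes, Apbb1ip, an adaptor in integrin activation, passed in AKO vs. WT rats. Apbb1ip ran from 64.6 to 166.9 in WT rats (median 116.3), 84.3 to 179.1 in HIP rats (median 122.2) and 97.3 to 252.3 in AKO rats (median 151.5), and its log2 fold change was 0.43 ± 0.17 (p = 0.0209). Aif1, which encodes the actin-bundling marker IBA1, did not pass. Aif1 ran from 112.4 to 215.2 in WT rats (median 171.5), 106.05 to 365.5 in HIP rats (median 141.9) and 89.1 to 334.1 in AKO rats (median 185.6), with a log2 fold change of -0.04 ± 0.18 in HIP vs. WT rats (p = 0.823) and 0.15 ± 0.17 in AKO vs. WT rats (p = 0.414). Dock8 and Vav1 activate small GTPases. Dock8 ran from 73.8 to 131.8 in WT rats (median 92.1), 80.7 to 230.4 in HIP rats (median 95.2) and 48 to 178.1 in AKO rats (median 117.4), and Vav1 from 20.1 to 34.6 in WT rats (median 28.3), 20.9 to 66 in HIP rats (median 25.3) and 14.6 to 43.4 in AKO rats (median 39.7), with HIP rat 10RT48 highest of all rats in both. Rgs10, a regulator of G-protein signalling, ran from 318.1 to 762.1 in WT rats (median 574.5), 372.8 to 774.96 in HIP rats (median 510.6) and 388.2 to 848.02 in AKO rats (median 545.4). Inpp5d encodes the lipid phosphatase SHIP1 and Arhgap25 a GTPase-activating protein for Rac. Inpp5d ran from 84.9 to 736.1 in WT rats (median 452.8), 310.9 to 894.3 in HIP rats (median 380.3) and 307.96 to 827.3 in AKO rats (median 615.4), and Arhgap25 from 43.1 to 483.7 in WT rats (median 386.4), 340.1 to 570.6 in HIP rats (median 428.6) and 321.9 to 658.5 in AKO rats (median 434.9). For both the lowest of all rats was WT rat 10RT43, whose Arhgap25 value was followed by 311.3 in the next WT rat. Lcp1, an actin-bundling protein of leukocytes, ran from 228.7 to 312.4 in WT rats (median 267.5), 169.6 to 504.8 in HIP rats (median 254.6) and 192.1 to 448.5 in AKO rats (median 323.6), and its log2 fold changes lay between -0.22 and 0.21 over the comparisons.

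None of the other surface and secreted proteins passed in AKO vs. WT rats. Tmem119, which had the lowest fold change of the 5 members below 0 in that comparison, ran from 163.8 to 512.5 in WT rats (median 403.7), 297.2 to 631.5 in HIP rats (median 371.3) and 96 to 547.9 in AKO rats (median 252.6). Of the AKO rats, 9 were below the WT median, yet the difference in AKO vs. WT rats was -0.48 ± 0.24 with p = 0.0624, which misses the threshold. The 4 AKO rats with KAH in their identifier were at 96, 391.6, 394.7 and 547.9, and the other 6 at 196.1 to 304.2. HIP rats were all above the AKO median, and Tmem119 was higher in HIP vs. AKO rats by 0.52 ± 0.22 (p = 0.0262, adjusted p = 0.328). Without WT rat 10RT43, the lowest WT rat, Tmem119 passed an unadjusted p of 0.05 as lower in AKO vs. WT rats, and without HIP rat 10RT48 it no longer passed in HIP vs. AKO rats. Slco2b1, an organic anion transporter, ran from 283.4 to 623.4 in WT rats (median 489.1), 394.3 to 652.4 in HIP rats (median 444.9) and 157.7 to 738.6 in AKO rats (median 634.6). AKO rat 4KAH27 alone was low, and 8 AKO rats lay above the WT median. Cd37 and Cd53 are tetraspanins of leukocytes. Cd37 ran from 23.9 to 76.5 in WT rats (median 45.4), 38.6 to 128.8 in HIP rats (median 51.1) and 23.3 to 93.5 in AKO rats (median 72.5), with a log2 fold change of 0.47 ± 0.23 in AKO vs. WT rats (p = 0.0528), and Cd53 from 101.6 to 167.4 in WT rats (median 150.4), 96.9 to 258.7 in HIP rats (median 149.8) and 114.4 to 202.1 in AKO rats (median 163.04). Olfml3, a secreted matrix protein, and Ptprc, the leukocyte phosphatase CD45, had log2 fold changes of 0.33 ± 0.20 (p = 0.11) and 0.34 ± 0.25 (p = 0.195) in AKO vs. WT rats. Olfml3 ran from 62.4 to 206.8 in WT rats (median 98.2), 69.4 to 186.2 in HIP rats (median 109.97) and 84.2 to 211.2 in AKO rats (median 119.6). Ptprc ran from 26 to 72.7 in WT rats (median 49.9), 32.7 to 152.9 in HIP rats (median 63.4) and 19.4 to 105.03 in AKO rats (median 71.6), with AKO rat 6KAH98 lowest of all rats.

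**Figure D3:**
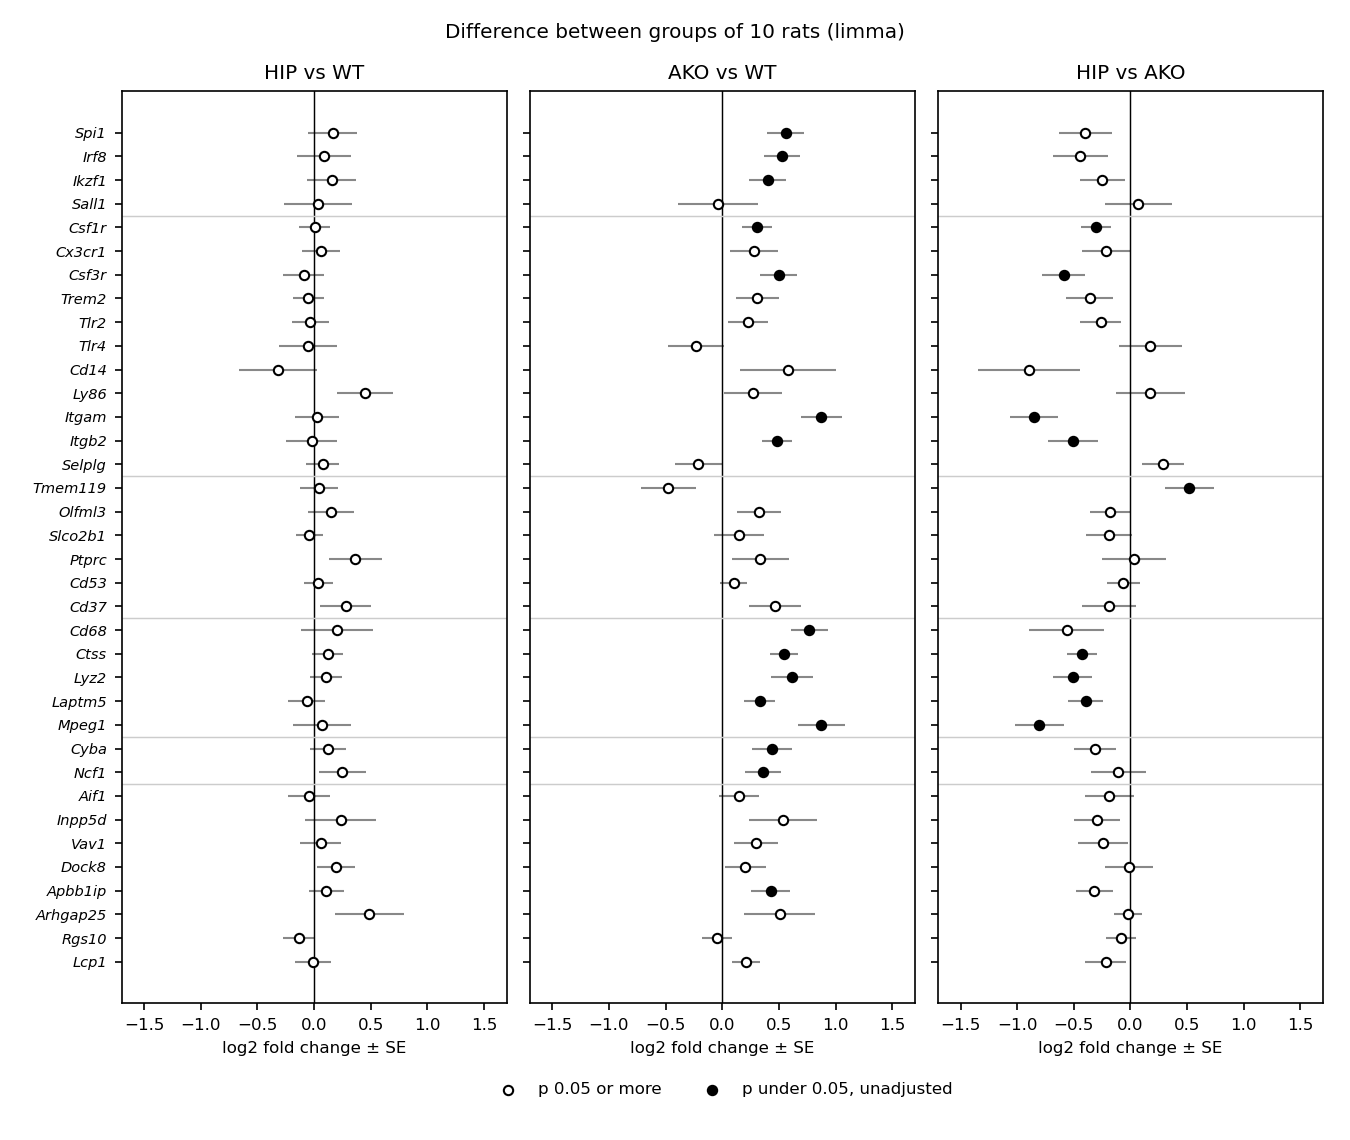
Points are log2 fold changes and lines their SE for each gene in HIP vs. WT, AKO vs. WT and HIP vs. AKO rats (limma, n = 10 rats each); filled points have an unadjusted p under 0.05. No point is filled for HIP vs. WT rats, 15 are filled on the right of 0 for AKO vs. WT rats, and 9 are filled for HIP vs. AKO rats, of which Tmem119 is the one on the right.

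In HIP vs. AKO rats, 9 of the 36 genes passed an unadjusted p of 0.05, with 8 lower and 1 higher in HIP rats, compared with 6.9% of all 17092 genes lower and 5.85% higher. The median log2 fold change was -0.24, with 30 genes below 0 and 6 above, beside 49% and 51% of all genes. None passed after adjustment, compared with 0.17% of all genes (0.0702% higher in HIP rats), and the smallest adjusted p was 0.107 (Itgam). Among those lower in HIP rats, the log2 fold change of Itgam was -0.85 ± 0.21 (p = 0.00063), that of Mpeg1 -0.81 ± 0.21 (p = 0.00109), that of Lyz2 -0.51 ± 0.17 (p = 0.00687) and that of Ctss -0.43 ± 0.13 (p = 0.00437). Csf1r, Csf3r, Itgb2 and Laptm5 were the other genes lower in HIP rats. The AKO rats are shared with the comparison to WT rats, so these results are not separate evidence. Without HIP rat 10RT48, 16 genes were lower and 4 of them, Itgam, Ctss, Csf3r and Mpeg1, passed after adjustment, when 11% of all genes passed an unadjusted p of 0.05 and 0.234% an adjusted one. With 10RT46 also left out 20 genes were lower and 6 passed after adjustment, adding Irf8 and Itgb2 to those 4, when 15.5% of all genes passed unadjusted and 0.593% adjusted. These libraries had been singled out in part by their high values of the same genes, so the counts without them depend on that choice. Without AKO rat 7AKO30, 14 genes were lower and 1 higher, with none after adjustment, when 14.8% of all genes passed unadjusted.

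In AKO vs. WT rats, leaving out each rat in turn gave 13 to 21 genes at an unadjusted p of 0.05 and 0 to 3 after adjustment. The share of all genes is given for some of these fits only. In them 9.01% (without 6KAH98) to 11.6% (without 7AKO30) passed unadjusted, and 0.106% (without 6KAH98) to 0.229% (without 4KAH27) passed adjusted. Without 4KAH27, 21 genes were higher, and Itgam and Cd68 passed after adjustment, when 10.3% of all genes passed unadjusted and 0.229% adjusted. This rat too was singled out by these genes. Other fits gave no call after adjustment. Without WT rat 10RT43, 14 genes were higher and 1 (Tmem119) lower, when 10.3% of all genes passed unadjusted and 0.123% adjusted. Without 7AKO30, 18 were higher, beside 11.6% and 0.141%. Without 10RT43, 7AKO19 and 4KAH27 together, 19 were higher and 1 (Tmem119) lower, beside 10.3% and 0.206%. Without 6KAH99, 3 genes (Itgam, Cd68 and Ctss) passed after adjustment, beside 0.223% of all genes, and without 6KAH98, 1 (Itgam) did, beside 0.106%. Without the 4 AKO rats with KAH in their identifier, 18 genes were higher and 1 (Tmem119) lower, and Itgam, Cd68 and Ctss passed after adjustment, when 7.45% of all genes passed unadjusted and 0.399% adjusted. Lyz2 and Cyba, which passed unadjusted over all 10 AKO rats, did not pass without these 4. Lyz2 was at 1103 to 1649 in them and at 531.2 to 1045 in the others apart from 7AKO42 (1494). Leaving out these 4 rats was chosen after the data were seen.

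Markers of other myeloid cells were examined beside these results. In AKO vs. WT rats, 5.23% of all genes tested were higher at an unadjusted p of 0.05 and 4.12% were lower. Of 9 genes of monocytes and neutrophils, 6 were higher by that rule. Their summed level was 14.9 to 40.5 in WT, 14.7 to 476.5 in HIP and 42.5 to 517.02 in AKO rats. The neutrophil genes S100a8, S100a9, Camp, Ngp and Cxcr2 were low in WT rats, with medians of 2.66, 4.87, 0.787, 0.977 and 1.01, and S100a9 had a median of 9.74 in AKO rats, where 4KAH27 reached 197.5. Camp, Ngp and Cxcr2 were listed at 0 in some rats. The highest sums came from 10RT48 in HIP rats, with 84.4 in the next, and from 4KAH27 in AKO rats. Of 8 genes of perivascular macrophages, 3 (Cd163, Folr2 and Siglec1) were higher in AKO vs. WT rats, and the summed level was 307.03 to 556.02 in WT, 222.5 to 472.6 in HIP and 332.9 to 683.8 in AKO rats. None passed after adjustment in either list, the smallest adjusted p being 0.098 and 0.177. In HIP vs. WT rats the lists differed in sign, untested: of 8 monocyte and neutrophil genes tested, all 8 were above 0 with a median of 0.49, and 1 passed unadjusted (S100a9, 0.91 ± 0.43, p = 0.0451), whereas all 8 perivascular macrophage genes were below 0 with a median of -0.22 and none passed. Of the lymphocyte genes, Cd3e and Cd8a were matched and neither passed. The summed level of 5 neuronal genes had medians of 112014 in WT and 91501 in AKO rats, with 1 of 5 lower. The part of these cells in the microglial result was not tested.

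MHC class II genes, which present antigen and which microglia and other myeloid cells raise on activation, were higher in AKO vs. WT rats at an unadjusted p of 0.05 for 6 of 7 members. Among all genes, 5.23% were higher unadjusted and 0.0528% after adjustment. RT1-DMa ran from 194.9 to 363.2 in WT rats (median 322.8), 212.5 to 371.8 in HIP rats (median 294.7) and 340.1 to 671.8 in AKO rats (median 460.7), and its log2 fold change of 0.62 ± 0.12 passed after adjustment (adjusted p = 0.0438). Cd74, the invariant chain, ran from 213.9 to 764.2 in WT rats (median 323.2), 127.01 to 8776 in HIP rats (median 255.4) and 213.9 to 2294 in AKO rats (median 917.5), and was higher in AKO vs. WT rats by 1.14 ± 0.34 (p = 0.00298). HIP rat 10RT48 held 8776 against 765.1 in the next HIP rat. Genes of the RT1 family are near copies of each other, and how the counting split reads between them is uncertain.

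Other genes of the microglial programme were taken from fixed lists. As a background, 5.23% of all genes passed as higher in AKO vs. WT rats at an unadjusted p of 0.05. Of 12 further homeostatic genes, 3 passed as higher in AKO vs. WT rats, among them Abi3 and Gpr183 with log2 fold changes of 0.64 ± 0.22 and 0.55 ± 0.22, and none passed after adjustment. P2ry12, the purinergic receptor used as a homeostatic marker, ran from 218.8 to 481.8 in WT rats (median 348.98), 261.3 to 431.5 in HIP rats (median 338.4) and 106.97 to 622.2 in AKO rats (median 363.02), with a log2 fold change of -0.08 ± 0.24 in AKO vs. WT rats (p = 0.745). Of 18 further activated genes, Apoe, Ctsz, Lgals3 and Tyrobp passed as higher in AKO vs. WT rats. Tyrobp, the adaptor that carries the Trem2 signal, ran from 75.3 to 136.4 in WT rats (median 115.4), 73.2 to 273.3 in HIP rats (median 98.2) and 90.6 to 213.7 in AKO rats (median 164.1), with 0.47 ± 0.14 (p = 0.00309). Lgals3, which encodes galectin-3, differed by 0.99 ± 0.30 (p = 0.00307). Of the 9 ligands and cytokines, Icam1, Il1b and Tgfb1 passed as higher in AKO vs. WT rats. The ligands of Csf1r, Csf1 and Il34, had log2 fold changes of 0.13 ± 0.11 (p = 0.232) and 0.30 ± 0.23 (p = 0.21), and Cx3cl1, the ligand of Cx3cr1, 0.34 ± 0.41 (p = 0.419). Il1b ran from 0 to 8.59 in WT rats (median 2.04), 0 to 8.38 in HIP rats (median 5.46) and 1.09 to 49.4 in AKO rats (median 4.92), with 1.12 ± 0.46 (p = 0.0246). In HIP vs. WT rats none of the ligands, none of the activated genes and 1 of the homeostatic genes (Lag3, with a log2 fold change of -0.82 ± 0.39, p = 0.0476) passed.

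The members can be divided by state into 7 homeostatic genes (Cx3cr1, Tmem119, Csf1r, Sall1, Olfml3, Slco2b1 and Selplg) and 8 activated genes (Cd68, Trem2, Ctss, Lyz2, Cd14, Tlr2, Cyba and Ncf1). In AKO vs. WT rats the median log2 fold change was 0.15 for the homeostatic genes, with 4 of 7 above 0 and 1 passing an unadjusted p of 0.05, and 0.49 for the activated genes, with 8 of 8 above 0 and 5 passing. All of these calls were higher in AKO rats, compared with 5.23% of all genes. The difference between the medians, -0.34, was -0.14 without AKO rat 4KAH27. In HIP vs. WT rats the medians were 0.04 and 0.11, and no gene of either set passed. In HIP vs. AKO rats they were -0.18 and -0.39. The mean over the activated genes, as the log2 difference from the median of 30 rats, was -0.12 ± 0.17 in WT, -0.07 ± 0.46 in HIP and 0.36 ± 0.28 in AKO rats (SD, n = 10). For the homeostatic genes it was -0.02 ± 0.38, 0.02 ± 0.26 and 0.03 ± 0.47. The homeostatic mean minus the activated mean was below 0 in 9 of 10 AKO rats, from -1.57 (4KAH27) to 0.16 (6KAH99), with a median of -0.26. In WT rats it ran from -0.62 (10RT43) to 0.42, with a median of 0.13, and the other 9 WT rats were all at 0.08 or above. In HIP rats it ran from -0.40 (10RT48) to 0.42, with a median of 0.18, and 10RT46 and 10RT48 alone were below 0. These means over genes chosen by name are given as a description, without a test. Of the homeostatic genes, Sall1 varied with olfactory bulb markers, as given above. Over the same 24 rats, Olfml3 had r of 0.83 with the mean log2 level of 6 meningeal fibroblast genes and 0.44 with Csf1r. The highest differences in WT and HIP rats were those of 10RT50 and 10RT53, both named above for high Sall1. The part of other tissue in these means was not tested.

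**Figure D4:**
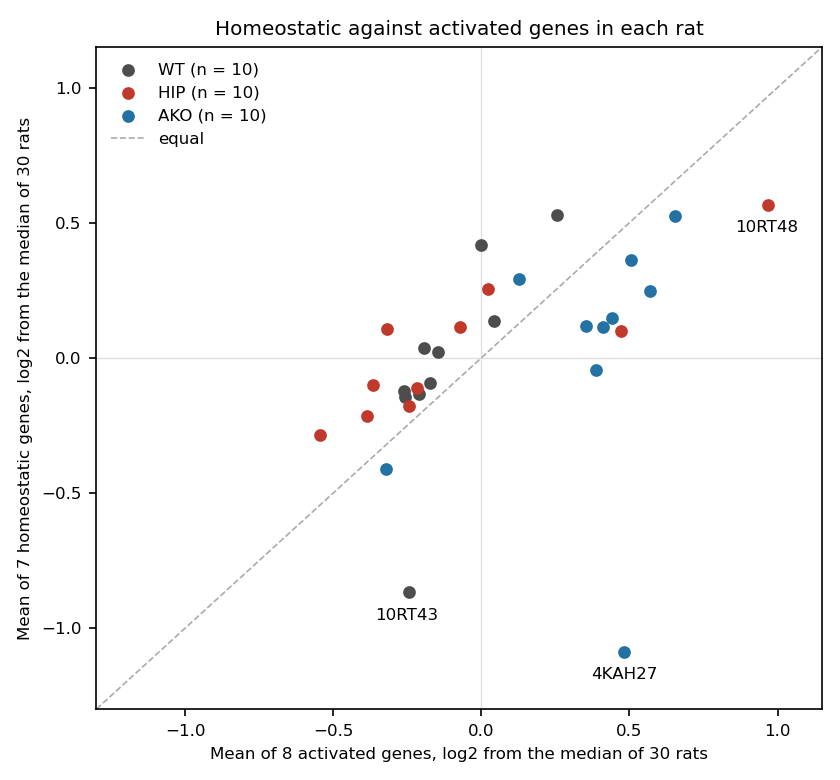
Each point is a rat, with the mean of 8 activated genes on the x axis and of 7 homeostatic genes on the y axis, both as the log2 difference from the median of 30 rats, and the dashed line marks equal values. Of the AKO rats, 9 lie below the line, 10RT43 is the low WT rat, 10RT48 is the HIP rat high in both, and 4KAH27 is the AKO rat at -1.09 for the homeostatic genes.

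HIP rat 10RT48 was the highest of its group for 29 of the 36 genes and the highest of all 30 rats for 23, whereas it was the highest HIP rat for 9.06% of all genes. The median difference from its group's median was 1.19 on the log2 scale. Its largest difference among the members was for Cd68 (259.7 against 17.3 to 59.1 in the other HIP rats, 7.58-fold the median of the others), followed by Ly86 (147.7 against 24.2 to 48.5) and Irf8 (284.9 against 50.6 to 116.4). The homeostatic genes were high in the same rat, with Tmem119 at 631.5 against 297.2 to 422.4 and Cx3cr1 at 1685 against 617.2 to 975.97. The 7 members inside the range of the other HIP rats were Trem2, Sall1, Olfml3, Lyz2, Cd14, Itgb2 and Arhgap25. MHC class II genes exceeded the others further, with RT1-Da at 2423 against 33 to 219.1, and of the monocyte and neutrophil genes Plac8 reached 336.2 against 28.1 in the next HIP rat. The neutrophil gene S100a9, at 9.43, was within the range of the other HIP rats, from 2.11 to 16.5. The part of infiltrating cells in this rat was not tested.

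AKO rat 4KAH27 differed in kind. It was the lowest AKO rat for 12 of the 36 genes and the highest for 2, beside 17.8% and 18.2% of all genes. Its estimated depth, 12.9 M reads, was the lowest of all 30 rats. Of the 7 homeostatic genes, 5 were the lowest of its group (Sall1 and Olfml3 were not), with Slco2b1 at 157.7 against 395.7 to 738.6 in the other AKO rats, Cx3cr1 at 340.1 against 645.8 to 1307, Tmem119 at 96 against 196.1 to 547.9 and P2ry12 at 106.97 against 184.7 to 622.2. Cd14 was the highest of all rats, at 319.5 against 13.9 to 28.5 in the other AKO rats, which is 14.5-fold the median of the others. Gpnmb, a glycoprotein of lipid-laden macrophages, was at 2047 against 159.2 to 410.4, and Lgals3 at 259.2 against 33.5 to 99.2. The chemokine Ccl3 was at 32.9 against 1.63 to 8.50. Genes inside the range of the other AKO rats included Itgam (230.4), Itgb2 (200.2) and Csf3r (65.8). S100a8 and S100a9, at 130.3 and 197.5, were also the highest of all rats, and MHC class II genes were low, with Cd74 at 213.9 against 454.1 to 2294. Of the activated genes, Lyz2 was the highest in AKO rats and Trem2 and Ncf1 the lowest in the same rat.

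WT rat 10RT43, the library with cerebellar markers, was the lowest WT rat for 24 of the 36 genes, beside 30.6% of all genes, and the lowest of all 30 rats for 13. Cx3cr1 was at 375.5 against 752.6 in the next WT rat, Csf1r at 746.2 against 1285, and Tmem119 at 163.8 against 310.1. Cd14 and Tlr4 were the reverse, 10RT43 being the highest WT rat at 57.4 and 65.8. Among the AKO rats, 7AKO30 was the lowest for 12 genes, beside 8.68% of all genes, and 4KAH35 the highest for 13, beside 11.8%.

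To describe how the genes varied together within groups, each was fitted on log2 Csf1r over the 30 rats with the group as a factor. Of the 35 other members, 26 had a positive slope at an adjusted p of 0.05 (limma, Benjamini-Hochberg over 17102 genes), compared with 3.91% of all genes, and none had a negative one, compared with 1.71%, so that 5.63% of all genes had a slope in either direction. The closest relation was that of Cx3cr1, with a slope of 1.36 ± 0.12 (adjusted p = 8.91e-08), Pearson's r of 0.91 and Spearman's rho of 0.79 on group-centred values (permutation p = 1e-05 for both, the smallest that 100000 permutations can give). Laptm5 followed with a slope of 1.01 ± 0.10 (adjusted p = 1.69e-07) and r of 0.90, and Selplg with 1.12 ± 0.15 (adjusted p = 1.93e-05) and r of 0.83. The median r with Csf1r was 0.70 over the 35 genes and 0.02 over all genes. Without 10RT48 and 10RT43, which were farthest from the median of Csf1r, the median r was 0.52, and r was 0.85 for Cx3cr1, 0.80 for Laptm5 and 0.78 for Selplg. Within single groups the median r was 0.73 in WT, 0.81 in HIP and 0.62 in AKO rats.

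The relation was weaker, and changed sign for some genes, without the libraries that stood apart. Over the 24 rats without 10RT43, 12RT23, 10RT46, 7AKO19, 10RT48 and 4KAH27, the median r was 0.55 against 0.01 over all genes, and 13 genes had a positive slope at an adjusted p of 0.05, compared with 2.06% of all genes. Cx3cr1 (r = 0.78), Laptm5 (0.77), Spi1 (0.74), Irf8 (0.74) and Tlr2 (0.73) led them. Lyz2 was not called over 30 rats (slope 0.37 ± 0.22) and was called over 24 (slope 1.49 ± 0.34, adjusted p = 0.0223). Inpp5d, Rgs10 and Arhgap25 had r of 0.38, 0.42 and 0.48 over 30 rats and -0.44, -0.34 and -0.13 over 24. Over the same 24 rats these 3 genes had positive r with 7 genes of the neocortical layers, from 0.31 to 0.72, whereas every other member had negative r with them, from -0.80 to -0.24. The 24 rats still held the rats with high olfactory bulb markers named above for Sall1. Over them, r with the 5 olfactory bulb genes was 0.50 for Csf1r, 0.52 for Cx3cr1 and 0.66 for Irf8. It was lower for others, such as Aif1 (0.16) and Trem2 (0.09). The shares of cortex and of olfactory bulb in each sample were not measured directly, and their part in these correlations was not tested.

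**Figure D5:**
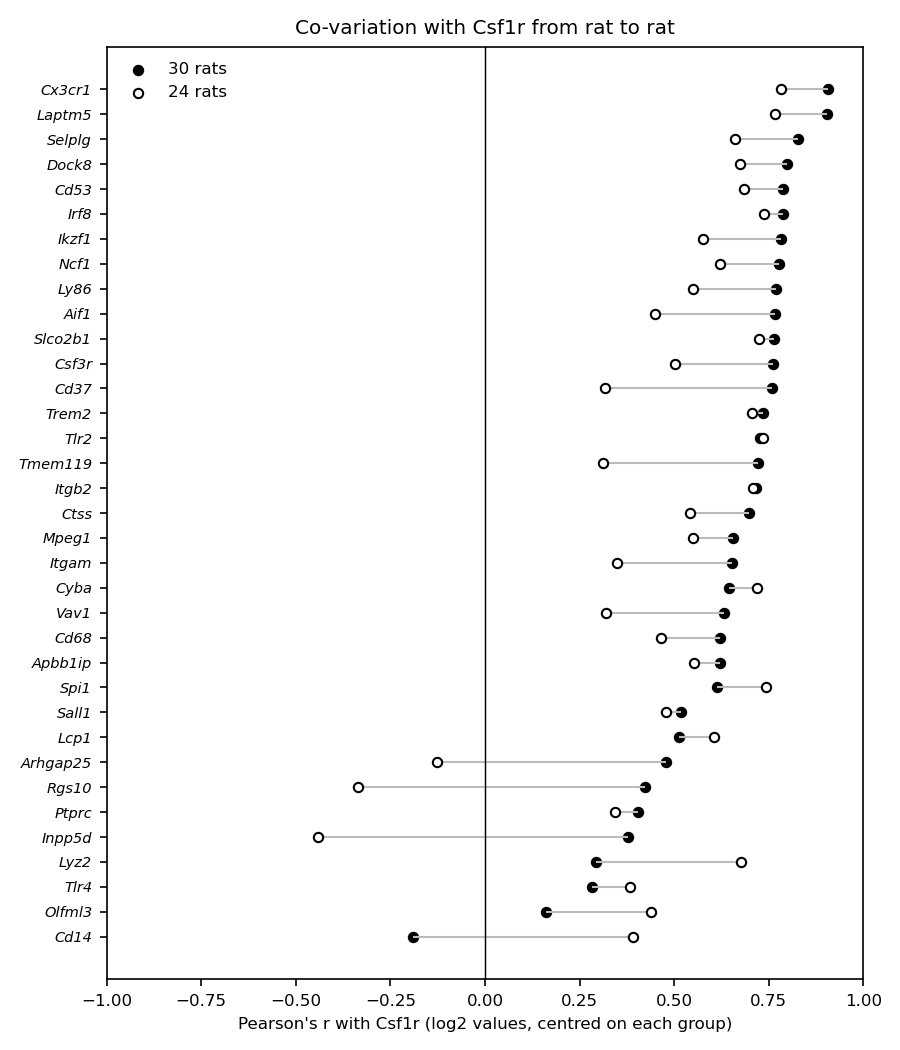
Pearson's r of each gene with Csf1r, on log2 values centred on each group, is shown over all 30 rats (filled) and over the 24 rats without the 6 libraries that stood apart (open). Over 24 rats 32 of 35 genes lie above 0.3 and Inpp5d, Rgs10 and Arhgap25 lie below 0, whereas over 30 rats only Cd14 lies below 0.

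Of the 36 genes, 12 overlap another gene in the RefSeq annotation, among them Cd37, Slco2b1, Dock8, Lcp1 and Ly86 with protein-coding genes. Whether the counting used strand was not given in the sources used here, so reads of such neighbours cannot be told apart from those of the members.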

How the data were processed

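Total RNA from the brain tissue of 30 rats was made into mRNA libraries and sequenced. Per the study's methods, the authors aligned reads to rn7, counted them per gene of Ensembl 105 in Partek and normalized the counts with DESeq2. The submitters' processing notes name Partek 10.0.22.0228, Bowtie2, STAR 2.7.8a and DESeq2. The deposited values are normalized counts, used here as a signal, for 17134 genes. The step of the low values gave the depth per rat, but not all values came out as whole reads, so no count model was used.

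Groups came from the labelled genotype. Values were taken as log2(normalized count + 1), which understates the change of low genes, genes with a mean under 1 in a comparison were left out, and each pair of groups was fitted with limma 3.58.1 in R 4.3.3 (trend, two-sided). Unadjusted p and Benjamini-Hochberg adjusted p over all genes were used. Sums and correlations were computed with Python 3.11.15 and scipy 1.17.1. The fits were tested on simulated data.

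The members and lists were chosen with earlier results of these data known. All 36 matched members were named by rule, other genes only from the lists, and the 4 promoters by smallest p. The replicates were separate rats, no pair of libraries held identical values, and the correlation between any 2 rats was 0.862 to 0.989. Gpr34, Cybb and Iapp were not analysed here. The result of 1 other listed gene is not reported here. Alternatives included the pseudocount, the filter, scaling, depth, tissue markers and left-out rats.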

Additional observations from a re-analysis of the deposited data

Results flagged for a closer look

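In each group of 10 rats, the gap between the most extreme rat and its neighbour was set against the range of the group (Dixon's ratio, taken at its 95% critical value for 10 samples), for the 36 genes and for 2 means over genes. Of the 114 groups examined, 34 had a rat past that value, where chance gives about 1 in 20, that is 5.7, and the genes are not independent of each other. All but 1 came from 3 rats.

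WT rat 10RT43, the library with cerebellar markers, lay far below the other WT rats in 15 groups. Its normalized counts were Cx3cr1 (375.5), Tmem119 (163.8), Csf1r (746.2), Trem2 (116.00), Ctss (1767), Laptm5 (318.1), Cd53 (101.6), Inpp5d (84.9), Csf3r (27.5), Slco2b1 (283.4), Itgb2 (98.1), Arhgap25 (43.1), Rgs10 (318.1) and Selplg (472.4), and its mean over the homeostatic genes was -0.87 on the log2 scale.

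HIP rat 10RT48 lay far above the other HIP rats in 12 groups, with normalized counts of Cx3cr1 (1685), Tmem119 (631.5), Csf1r (2496), Cd68 (259.7), Ctss (6096), Irf8 (284.9), Ly86 (147.7), Ncf1 (345.6), Vav1 (66), Dock8 (230.4), Ikzf1 (238.8) and Csf3r (109.96). Its MHC class II genes were high as well.

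AKO rat 4KAH27 lay apart in 6 groups, with normalized counts of Cx3cr1 (340.1), Ly86 (9.60), Cd37 (23.3), Slco2b1 (157.7) and Selplg (316.8) below the other AKO rats and Cd14 (319.5) above them. In AKO rat 6AKO35, one of the rats with olfactory bulb markers, Sall1 (2414) lay above the others. The causes in these rats were not tested.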

How the results depend on the processing

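In HIP vs. WT rats the count of genes at an unadjusted p of 0.05, 0 in the fit reported, was 0 to 1 when each rat was left out in turn. It was 1 with neocortical layer genes as a covariate, 8 without 10RT43, 10RT46 and 10RT48, 8 without those of the 6 libraries that stood apart in these groups (all lower in HIP rats), and 8 with estimated reads as a covariate (all higher), where 1 passed after adjustment. The median log2 fold change ranged from -0.05 to 0.12 with single rats left out and from -0.15 to 0.32 over the other settings.

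In AKO vs. WT rats the count was 13 to 21 with single rats left out and 11 to 20 over the other settings. After adjustment it was 0 to 3 with single rats left out, 1 with quantile normalization, 3 with the layer covariate, 3 without the 4 KAH rats and 1 with estimated reads. Of all genes, 0.252% passed after adjustment with the layer covariate, 0.399% without the KAH rats and 0.0997% with estimated reads. For quantile normalization and for most single rats left out this share is not given here, so those counts describe the members alone. In HIP vs. AKO rats the count was 7 to 16 with single rats left out, reaching 16 without 10RT48 and 15 without 7AKO30. It was 20 without those of the 3 libraries in these groups, with 6 after adjustment, and 20 without those of the 6, with 1. Of all genes, 15.5% and 13.7% then passed unadjusted, and 0.593% and 0.371% after adjustment. The count after adjustment was 0 to 4 with single rats left out and 2 without the KAH rats, when 0.703% of all genes passed. Members with a positive slope on Csf1r numbered 23 to 27 with single rats left out and 13 without the 6 libraries. Of all genes, 0.978% (without 10RT43) to 11.3% (without 10RT48) had such a slope with single rats left out. Without the 6 libraries 2.06% did. The cause of these shifts was not tested. None of the 849 values of single genes changed sign, over 24 calls and all settings, and the calls lost most often were Ncf1 in AKO vs. WT rats (12 of 35) and Itgb2 (12 of 36) and Csf1r (10 of 36) in HIP vs. AKO rats.

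No paired analysis was possible because the replicate numbers of the groups were given in the order of the samples and no label ties a rat of one group to a rat of another. The depth limits low genes such as Cd14 and Ly86 most. The unit leaves the read counts unknown, so no interval for counting error is given. The homeostatic minus activated median stayed below 0 in AKO vs. WT rats, from -0.42 to -0.14, and above 0 in HIP vs. AKO rats, from 0.17 to 0.32, over every setting run, whereas in HIP vs. WT rats it ran from -0.13 to 0.09.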

Other observations

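Other cells of the tissue were compared by lists of marker genes. Of 6 astrocyte genes, such as Gfap and Aqp4, none passed an unadjusted p of 0.05 (limma) in HIP vs. WT or AKO vs. WT rats, with median log2 fold changes of -0.04 and 0.12. Of 6 oligodendrocyte genes, such as Mbp and Mog, none passed in either comparison, and the medians were -0.09 and -0.09. Of 6 meningeal fibroblast genes none passed, with medians of 0.03 and 0.04. Of 3 globin genes, 1 was higher in AKO vs. WT rats, and their median was 0.55. By that rule 5.23% of all genes were higher.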
